A study of Homo sapiens with 2 samples.

Results

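The zinc finger genes of 19q13.4, the end of the long arm of human chromosome 19, were examined in PC3CR and PC3 cells. The 54 members were given by name as zinc finger genes of the clusters in this band, not by their values, and 52 of them had at least 1 probe set paired with that gene symbol alone, among 19775 genes on the arrays. ZNF816 was paired only with a probe set that carried several symbols, ZNF773 was paired with none, and both were left without a value. PC3 is a prostate cancer cell line established from a bone metastasis. PC3CR is its cabazitaxel (CBZ)-resistant subline, a single line that was grown in CBZ, a taxane, over 18 months and then for 3 months in drug-free medium before profiling, and its parental PC3 cells had no such culture. Each line was profiled from total RNA on 1 Affymetrix array, so no difference has a replicate check, no test was possible, and precision is limited by the number of arrays.

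Most zinc finger proteins of these clusters combine an array of C2H2 fingers, which read DNA, with a KRAB domain. The KRAB domain binds the corepressor TRIM28 (KAP1), which brings the histone methyltransferase SETDB1 and heterochromatin proteins to the site, and many of these proteins are known for silencing retrotransposons. The genes arose by repeated local duplication, so neighbours can be alike in sequence.

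The authors deposited robust multichip average (RMA) values on the log2 scale, 1 per probe set. For each gene the probe set of highest mean signal on the 2 arrays was taken, and the difference is PC3CR minus PC3, so that 1 is 2-fold, the threshold of the methods. The median over all probe sets was 4.81 in PC3CR and 4.81 in PC3, and a member was taken as above the array median when its brighter array reached the median of that array. The median difference of all genes was -0.04. The epithelial keratin genes KRT8 and KRT18 lay at 9.79 and 12.36 in PC3CR and at 9.72 and 11.69 in PC3, the epithelial adhesion gene EPCAM at 8.57 in PC3CR and 11.07 in PC3, and the prostate secretory gene KLK3 at 8.08 in PC3CR and 8.04 in PC3.

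Of the 52 measured members, 5 were higher in PC3CR by 2-fold or more, 2 were lower by that much, and the other 45 differed by less. Over all genes, 9.84% were higher by 2-fold or more and 6.72% lower by as much, against 9.62% and 3.85% of the members. The median difference of the members was -0.04, the same as that of all genes to 2 decimals, and 26 members were lower, 20 higher and 6 equal on both arrays. The share of members past 2-fold was thus near that of all genes on the higher side. On the lower side it was smaller but rests on 2 members, or 3 after loess centring or quantile normalization. The higher members were ZNF83, ZNF468, ZNF471, ZNF813 and ZNF667, and the lower members were ZNF586 and ZNF766.

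**Figure D1:**
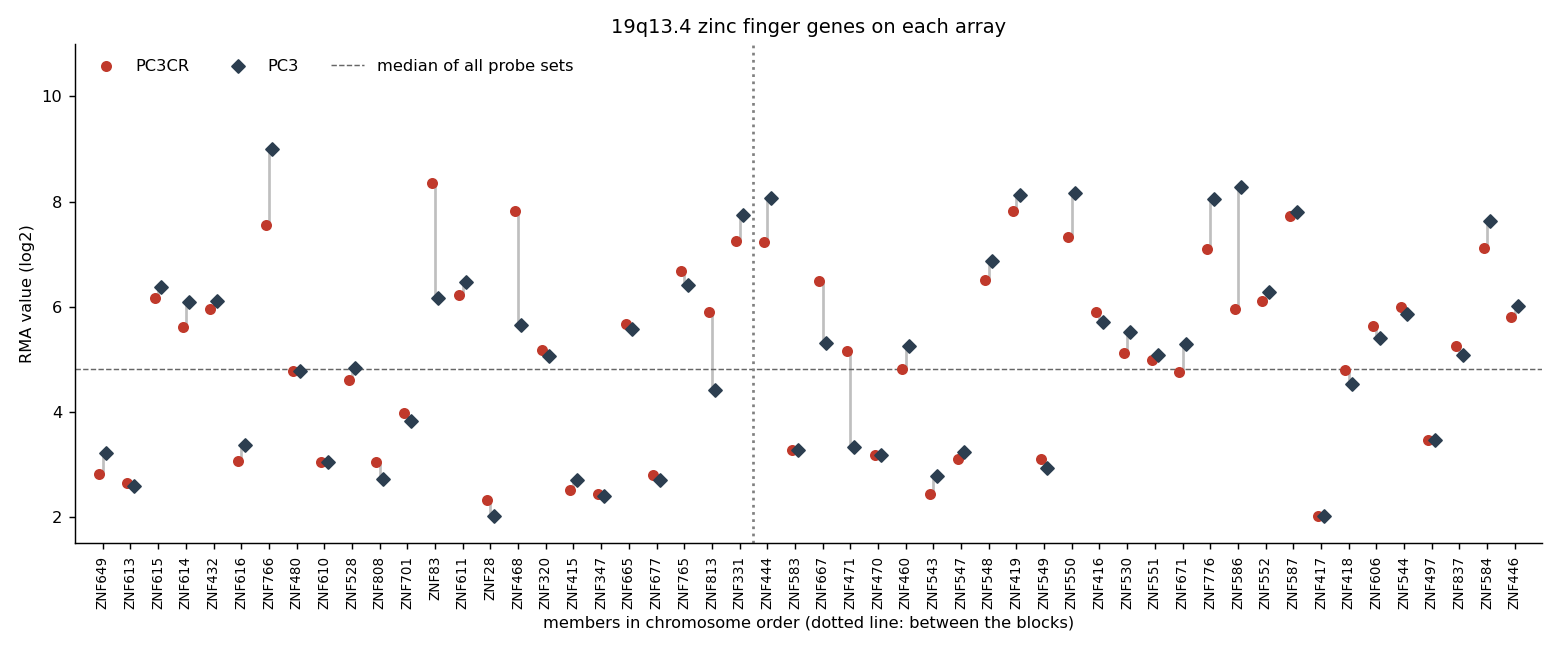
RMA values (log2, vertical axis) of the 52 measured members in chromosome order, with PC3CR as red circles and PC3 as dark diamonds, 1 array each. Grey bars join the values of a gene, the dashed line is the median of all probe sets and the dotted line separates the proximal from the distal block. ZNF83 and ZNF468 had the widest gaps with PC3CR on top, and ZNF586 the widest with PC3CR below.

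The higher members of the proximal part of the clusters were ZNF83, ZNF468 and ZNF813. ZNF83, a protein made almost wholly of C2H2 fingers, was at 8.35 in PC3CR and 6.17 in PC3, a difference of 2.18 or 4.54-fold. This value rests on a probe set of the s_at kind, which can bind several related transcripts. The second probe set of ZNF83 was at 2.65 in PC3CR and 1.97 in PC3, below the lower quartile of probe sets on both arrays (3.35 in PC3CR and 3.42 in PC3), and differed by 0.69. ZNF468 was at 7.82 in PC3CR and 5.65 in PC3, a difference of 2.17 or 4.50-fold, from its only probe set. ZNF813 was at 5.90 in PC3CR and 4.42 in PC3, a difference of 1.48 or 2.79-fold, also from its only probe set. ZNF813 was below the array median in PC3, so it entered the members above the median through the array on which it was high.

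The other higher members, ZNF667 and ZNF471, belong to the distal part, with 3 annotated genes between them. Both genes have been described as silenced by promoter methylation in tumours. ZNF667 was at 6.48 in PC3CR and 5.30 in PC3, a difference of 1.18 or 2.26-fold, and its second probe set differed by 0.92. ZNF471 was at 5.16 in PC3CR and 3.32 in PC3, a difference of 1.84 or 3.58-fold. The value of ZNF471 in PC3 lay below the lower quartile of probe sets, so the size of this difference is uncertain. Its other probe sets differed by 0.77 and 0.00, and with the mean of its 3 probe sets ZNF471 differed by 0.87 and no longer passed 2-fold.

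ZNF586, of which little is known beyond its KRAB zinc finger structure, was the member with the largest difference of the 52, at 5.95 in PC3CR and 8.28 in PC3, a difference of -2.33 or 5.03-fold. Its second probe set, at 2.46 in PC3CR and 3.17 in PC3, differed by -0.71. ZNF766 was at 7.56 in PC3CR and 8.99 in PC3, a difference of -1.44 or 2.71-fold, from its only probe set. Both genes stayed above the array median on both arrays.

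The promoters of 4 members past 2-fold are shown, ZNF83, ZNF468 and ZNF813 because they share a long run of letters, and ZNF586 because it holds CCAAT, the box bound by NF-Y, and CCGGAAG, a word of the kind bound by ETS transcription factors, the most frequent of 5 words searched in the members. RefSeq promoter windows (GRCh38.p14, 250 bases before to 50 after each gene's start) were matched for 46 of 54 members, and ZNF28, ZNF417, ZNF471, ZNF480, ZNF552, ZNF610, ZNF649 and ZNF665 were not matched. Only the 250 bases before the start are printed, 5′ to 3′ on the strand of the gene. In the proximal members that were higher the capitals mark the longest run shared by all 3, and in ZNF586 they mark CCAAT and CTTCCGG, the reverse complement of CCGGAAG. The windows lie at chr19:52690497-52690746 (minus strand, ZNF83), chr19:52857620-52857869 (minus strand, ZNF468), chr19:53467483-53467732 (plus strand, ZNF813) and chr19:57769426-57769675 (plus strand, ZNF586).
ZNF83: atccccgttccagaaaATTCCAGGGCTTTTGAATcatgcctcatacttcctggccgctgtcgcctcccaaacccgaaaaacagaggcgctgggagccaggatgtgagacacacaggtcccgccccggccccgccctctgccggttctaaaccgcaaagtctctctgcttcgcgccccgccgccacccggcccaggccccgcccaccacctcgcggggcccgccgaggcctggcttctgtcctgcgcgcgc
ZNF468: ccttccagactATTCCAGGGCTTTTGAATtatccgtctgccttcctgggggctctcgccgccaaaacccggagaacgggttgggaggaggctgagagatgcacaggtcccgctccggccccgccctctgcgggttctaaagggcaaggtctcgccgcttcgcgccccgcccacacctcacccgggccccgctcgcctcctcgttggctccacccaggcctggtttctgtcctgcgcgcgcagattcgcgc
ZNF813: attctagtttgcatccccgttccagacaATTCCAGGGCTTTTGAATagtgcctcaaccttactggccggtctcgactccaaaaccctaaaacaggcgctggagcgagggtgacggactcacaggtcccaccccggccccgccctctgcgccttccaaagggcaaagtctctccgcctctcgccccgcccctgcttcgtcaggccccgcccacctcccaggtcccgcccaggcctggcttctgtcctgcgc
ZNF586: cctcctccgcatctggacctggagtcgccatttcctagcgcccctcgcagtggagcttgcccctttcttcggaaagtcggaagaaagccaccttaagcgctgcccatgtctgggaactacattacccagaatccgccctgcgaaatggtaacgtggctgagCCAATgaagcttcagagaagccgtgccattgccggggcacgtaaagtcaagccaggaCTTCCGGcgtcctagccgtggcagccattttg

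The run shared by ZNF83, ZNF468 and ZNF813 was 18 bases long and began 234, 239 and 222 bases before the start. It was found after the sequences had been seen, and because it was searched in these 3 genes its presence in them is no result. On either strand it was held by 9 of 35116 promoters (0.0256%), all on chromosome 19. The 1 further member that held it was ZNF765, at 6.68 in PC3CR and 6.42 in PC3, a difference of 0.27. How alike the whole promoters are was not measured.

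Just inside the threshold on the lower side were ZNF776 at 7.09 in PC3CR and 8.04 in PC3 (-0.95), ZNF550 at 7.33 in PC3CR and 8.17 in PC3 (-0.85), and ZNF444 at 7.22 in PC3CR and 8.06 in PC3 (-0.84). ZNF444 is a zinc finger protein with a SCAN dimerisation domain in place of KRAB. The second probe sets of ZNF776, ZNF550 and ZNF444 differed by -0.30, -0.35 and -0.63. ZNF776 passed 2-fold after loess centring (-1.08) or quantile normalization (-1.04). On the higher side the gap was wide, because the members next inside the threshold were ZNF808 at 0.32, ZNF28 at 0.30 and ZNF418 at 0.28, and none of these was above the array median on either array. Loss of ZNF808 is known as a cause of failed pancreas development.

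**Figure D2:**
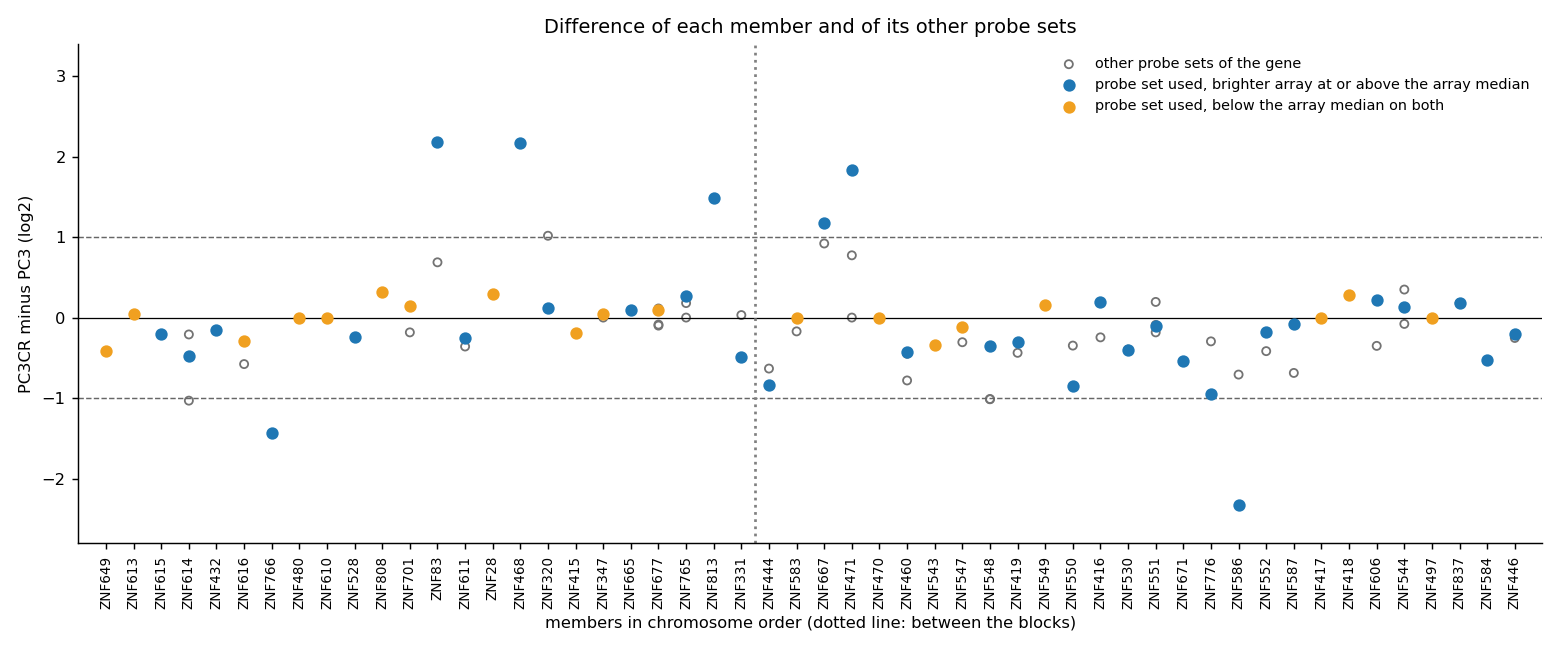
PC3CR minus PC3 (log2, vertical axis) for the 52 measured members in chromosome order. Filled points are the probe sets used, blue where the brighter array reached the array median and orange where neither did, open circles are the other probe sets of the gene and dashed lines mark 2-fold. The 5 filled points above 1 and the 2 below -1 are all blue, and every orange point lies between -0.41 and 0.32.

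Signal on the arrays divided the members. Above the array median were 33 members, of which 29 reached it on both arrays, ZNF813 and ZNF471 only in PC3CR, and ZNF528 and ZNF671 only in PC3. All 7 members past 2-fold were among them. Over all genes above the array median, 13.8% were higher by 2-fold or more and 9.38% lower by as much, against 15.2% and 6.06% of the 33 members. This share of higher members rests in part on ZNF813 and ZNF471, which passed the filter only through the array on which they were high. Among the 29 members above the median on both arrays, a filter chosen after the data had been seen, 3 (10.3%) were higher by 2-fold or more and 2 (6.9%) lower by as much, against 12.7% and 8% of 12224 genes. The median of the 33 members was -0.21, against 0.03 for the 13587 genes of that kind. Of the 33 members 21 were lower in PC3CR, against 6472 of the 13587 genes. When genes were admitted by the mean of both arrays, a filter chosen in the same way, 4 of 31 members (12.9%) were higher by 2-fold or more, against 13.6% of 13030 genes, and 2 (6.45%) lower by as much, against 9%. These 31 members had a median of -0.21 and 64.5% of them were lower, against a median of 0.04 and 47.2% for the 13030 genes. These medians describe the 2 arrays and were not tested.

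The other 19 members were below the median on both arrays and differed by between -0.41 and 0.32, with a median of 0.00. Of these, 15 lay below the lower quartile on both. The 6 members with equal values, ZNF480, ZNF610, ZNF583, ZNF470, ZNF417 and ZNF497, were all in this group. Over all genes 2.43% had equal values, against 11.54% of the members. Of the 480 equal genes on the arrays only 79 were above the array median. Equal values were thus mostly of dim genes in general, and 2.43% is not the share at this low signal. ZNF417, known with its close relative ZNF587 as a repressor of endogenous retroviruses, was at 2.02 on both arrays, while ZNF587 was at 7.72 in PC3CR and 7.80 in PC3. ZNF587 was read through x_at probe sets, which can bind transcripts of related genes, and differed by -0.08 and -0.69 in its 2 probe sets. ZNF677, reported as methylated in several cancers, was at 2.79 in PC3CR and 2.70 in PC3, and its 4 probe sets differed by no more than 0.11 in either direction. At so low a signal a small difference does not show that these genes were unchanged.

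With the 7 members past 2-fold left out, of which 5 were higher, 26 members above the median remained. Their signs were not set beside those of all genes within 2-fold. Of the 26 members 19 were lower in PC3CR and 7 higher, the higher ones (ZNF765, ZNF606, ZNF416, ZNF837, ZNF544, ZNF320 and ZNF665) by 0.09 to 0.27. Among those with a described role or a high signal, ZNF331, an imprinted KRAB zinc finger gene, was at 7.25 in PC3CR and 7.74 in PC3 (-0.49), and its second probe set differed by 0.03. ZNF419 was at 7.82 in PC3CR and 8.12 in PC3 (-0.30). ZNF446, which carries both SCAN and KRAB domains, was at 5.81 in PC3CR and 6.02 in PC3 (-0.21). ZNF671, another gene described as methylated in tumours, was at 4.74 in PC3CR and 5.28 in PC3 (-0.53).

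Probe sets of 1 gene did not always give 1 answer. Of the 52 members 30 had several probe sets, and in 19 of these 30 all probe sets had the same sign. The spread between the probe sets of a gene had a median of 0.34 and exceeded 1 in 3 genes. The members were represented by 6 s_at and 10 x_at probe sets, whose sequences can match relatives, and by 36 of other kinds. None of the 10 members read through x_at probe sets differed by more than 0.32. ZNF320 shows what the choice can do, because its x_at probe set was at 5.18 in PC3CR and 5.06 in PC3 (0.12), whereas its other probe set was at 4.61 in PC3CR and 3.59 in PC3 (1.02). Without s_at and x_at probe sets, ZNF320 passed 2-fold and ZNF83 (0.69) did not. How far relatives contributed to any signal was not tested.

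Along the chromosome the members form 2 blocks. Between ZNF331 and ZNF444 lie 212 annotated genes that hold no member, more than between any other consecutive members. The proximal block runs from ZNF649 to ZNF331 and the distal block from ZNF444 to ZNF446, as ordered in RefSeq. Of 24 measured members of the proximal block 3 (12.5%) were higher by 2-fold or more and 1 (4.17%) lower by as much. Their median was 0.02, or 0.00 with all probe sets of a gene averaged, and -0.16 over the 13 above the array median. Of 28 in the distal block 2 (7.14%) were higher by 2-fold or more and 1 (3.57%) lower by as much. Their median was -0.11, and -0.26 over the 20 above the array median. Over all genes the shares were 9.84% and 6.72%, and the median was -0.04, or 0.03 above the array median. The difference between the blocks was not tested.

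Within the distal block, the members from ZNF460 to ZNF587 were mostly lower in PC3CR. Of the 15 measured members of this stretch, whose ends were set after the values had been seen, 13 (86.7%) were lower, against 52.4% of all genes, ZNF549 and ZNF416 were higher by 0.15 and 0.19, and the median was -0.34. Of their 31 probe sets, 28 (90.3%) were lower, against 51.1% of all probe sets with 1 symbol. Because the ends were set on these values, the shares are a description only. Only ZNF586 passed 2-fold. The stretch also holds ZNF548, at 6.51 in PC3CR and 6.87 in PC3 (-0.35), whose other probe sets differed by -1.01 and -1.02, and ZNF530 at 5.11 in PC3CR and 5.51 in PC3 (-0.40). The lower values were thus spread over many genes of the stretch and were mostly below 2-fold.

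The nearest measured neighbours of the members past 2-fold were read in the same way. Around ZNF667 and ZNF471, the antisense gene ZNF667-AS1 was at 7.73 in PC3CR and 6.41 in PC3 (1.32), and ZFP28, the next zinc finger gene, at 5.52 in PC3CR and 4.14 in PC3 (1.38). Whether the array told the strands of ZNF667 and ZNF667-AS1 apart was not tested. On the 2 sides of this group ZNF583 and ZNF470 were equal on both arrays at 3.27 and 3.17, near the floor. Between ZNF83 and ZNF468 lie ZNF611 at 6.22 in PC3CR and 6.47 in PC3 (-0.25), ZNF600 at 5.70 in PC3CR and 4.48 in PC3 (1.22) and ZNF28 at 2.31 in PC3CR and 2.01 in PC3 (0.30). From ZNF83 to ZNF468, genes past 2-fold thus stood among genes within it, while ZNF667, ZNF667-AS1, ZNF471 and ZFP28 were consecutive measured genes and all past it. ZNF813 had ZNF765 (0.27) on one side and ZNF331 (-0.49) on the other. On one side of ZNF766, 5 annotated genes away, was PPP2R1A, the scaffold subunit of protein phosphatase PP2A. PPP2R1A was at 8.08 in PC3CR and 8.87 in PC3 (-0.80), and ZNF836 beyond it at 6.70 in PC3CR and 6.46 in PC3 (0.25). ZNF480, on the other side of ZNF766 with 1 annotated gene between, was equal at 4.77 on both arrays. ZNF586 stood next to ZNF776 (-0.95) on one side and ZNF552, at 6.10 in PC3CR and 6.28 in PC3 (-0.18), on the other.

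CCGGAAG occurred on either strand in 30 of 46 member promoters (65.2%), against 3603 of 35116 promoters (10.3%) and 14.4% of the promoters of measured genes. The other ZNF genes of the same interval held it in 56.2%, ZNF genes elsewhere on chromosome 19 in 31.9% and ZNF genes of other chromosomes in 36.3%. CCAAT occurred in 23 of 46 (50%), against 34.6% of all promoters. It was held by 18 of 26 promoters of the distal block against 5 of 20 of the proximal block. The other ZNF genes of the interval held CCAAT in 50%, those elsewhere on chromosome 19 in 54.9% and those of other chromosomes in 43.5%. The share of members with CCAAT was thus near that of other ZNF genes. CCGGAAG and CCAAT cannot overlap each other, while CCGGAAG can overlap AAGATGGCG by the letters AAG. Both CCGGAAG and CCAAT were held by 19 members (41.3%), against 3.41% of all promoters. This joint share was not counted in the other ZNF genes, which often held each word, so it is not shown to be particular to the members. TATAAA occurred in 1 of 46 (2.17%, 11.5% of all promoters), GCATGCGC, a core of the NRF1 site, in 1 (2.17%, 3.05%) and AAGATGGCG, a core of the YY1 site, in 2 (4.35%, 1.75%). In the same 3 lists of other ZNF genes TATAAA was held by 0%, 2.65% and 4.15%. The promoters of members held a median of 25 CG dinucleotides in 300 bases, against 14 in all promoters and 22 in those of measured genes. That median was 23 for the other ZNF genes of the interval, 18 for those elsewhere on chromosome 19 and 24 for those of other chromosomes.

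ZNF586 and ZNF766, the lower members, held both CCAAT and CCGGAAG. Both words were held by 19 of the 46 member promoters, these included. In ZNF586 the words began 89 and 32 bases before the start, and in ZNF766 CCAAT began 80 bases before and CCGGAAG 5 bases after it. Of the 4 higher members with a matched promoter, CCGGAAG was found only in ZNF813, 17 bases after the start, and CCAAT only in ZNF667, 190 bases before it. With so few lower and higher members, whether the words go with the direction of the difference was not tested. Over the members with a promoter and a value, the 28 with CCGGAAG had a median difference of -0.14 and the 16 without it 0.00, but above the array median the values were -0.25 for 21 and -0.21 for 9. The median was -0.34 for the 21 with CCAAT and 0.00 for the 23 without it, and above the array median -0.40 for 17 and -0.16 for 13. CCAAT was held by 18 of 26 distal and 5 of 20 proximal promoters, and the distal block had the lower median. The word and the block were not separated here. A word in a promoter is a match of letters, and no binding was measured.

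**Figure D3:**
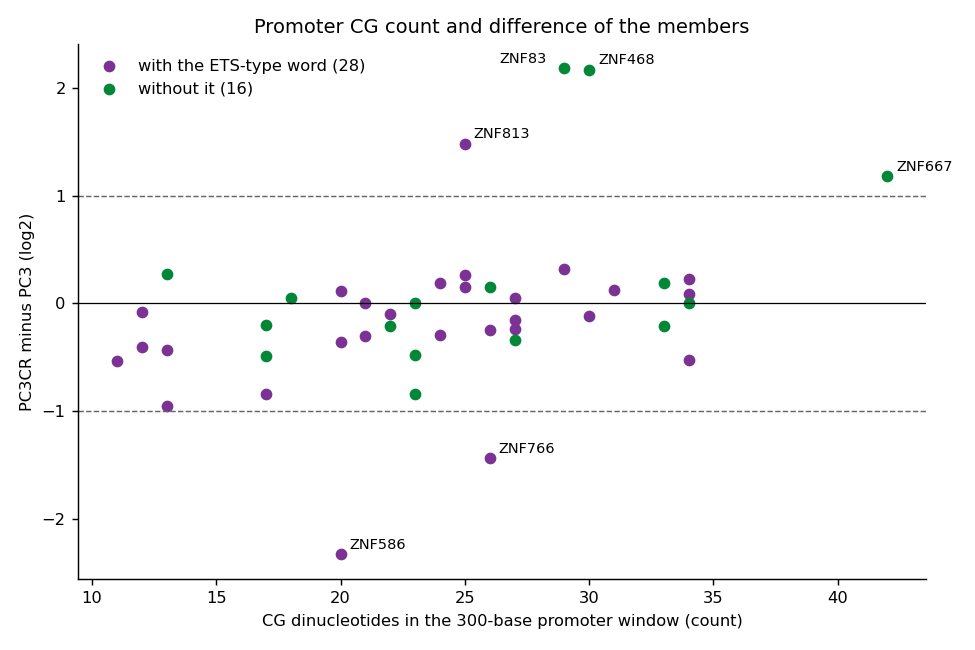
Number of CG dinucleotides in the 300-base promoter window (horizontal axis) and PC3CR minus PC3 (log2, vertical axis) of the 44 members with both, 1 point per gene. Purple points hold the ETS-type word and green points do not, dashed lines mark 2-fold and members past it are named. ZNF667 has the highest CG count, 42, and the lower members ZNF586 and ZNF766 have 20 and 26.

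The members were set beside other genes of the array by the same counts. The other 39 ZNF genes between ZNF649 and ZNF446 had a median of -0.31. Of these 2 (5.13%) were higher by 2-fold or more and 6 (15.4%) lower by as much, against 9.84% and 6.72% of all genes. Those furthest from 0 were ZNF628, at 4.59 in PC3CR and 6.96 in PC3 (-2.36), ZNF329 at 6.00 in PC3CR and 8.08 in PC3 (-2.08), ZNF805 at 6.95 in PC3CR and 8.76 in PC3 (-1.82) and ZNF542P at 5.35 in PC3CR and 3.65 in PC3 (1.69). Of these 39, 8 lay between the blocks, where no member lies, and all 8 were lower, with a median of -0.62. The 9 within the proximal block had a median of 0.07 and the 22 within the distal block -0.29. The 96 genes of the interval whose symbols do not begin with ZNF, ZSCAN, ZIM, ZFP or ZIK had a median of -0.18. None of them was higher by 2-fold or more and 13 (13.5%) were lower by as much. All 13 lay between the blocks, those furthest from 0 being DNAAF3-AS1 at 3.76 in PC3CR and 6.72 in PC3 (-2.96) and TMC4, a transmembrane channel-like gene, at 5.30 in PC3CR and 8.11 in PC3 (-2.81). No member lies in that region, and the genes of this list within the blocks, 4 proximal and 11 distal, held none past 2-fold. ZFP28 and ZNF667-AS1 belong to neither list.

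ZNF genes outside the interval were read next. Of 130 ZNF genes on chromosome 19 outside the interval 19 were higher by 2-fold or more and 5 lower by as much, with a median of 0.14. ZNF738 was furthest from 0, at 7.72 in PC3CR and 4.78 in PC3 (2.95), followed by ZNF573 at 6.11 in PC3CR and 3.19 in PC3 (2.92). Of 248 ZNF genes of other chromosomes 27 were higher by 2-fold or more and 26 lower by as much, with a median of 0.01. ZNF165, known for its expression in testis, was furthest from 0 there, at 5.92 in PC3CR and 9.07 in PC3 (-3.16). The members had 9.62% higher and 3.85% lower, against 14.6% and 3.85% for the other ZNF genes of chromosome 19 and 10.9% and 10.5% for those of other chromosomes. Over all genes these shares were 9.84% and 6.72%. No difference between these lists was tested.

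**Figure D4:**
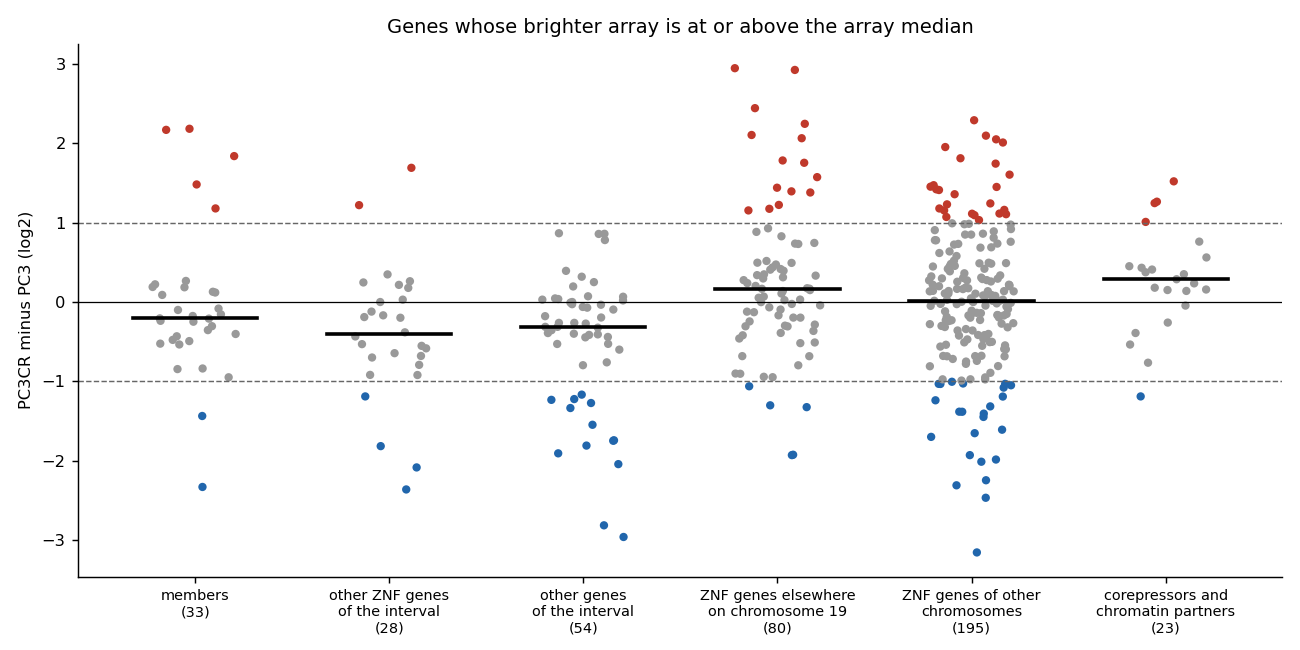
PC3CR minus PC3 (log2, vertical axis) for genes whose brighter array reached the array median in 6 lists, 1 point per gene, with list sizes in brackets. Red marks genes higher in PC3CR by 2-fold or more and blue those lower by as much, black bars are medians and dashed lines show the 2-fold limits. The medians are -0.21 for the members, -0.41 and -0.31 for the other ZNF and other genes of the interval, 0.16 and 0.02 for ZNF genes elsewhere on chromosome 19 and on other chromosomes, and 0.29 for the corepressors.

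A list of genes for proteins through which KRAB zinc fingers act was measured in full, and all of its genes were above the array median. Of these 23 corepressor and chromatin partner genes 4 (17.4%) were higher by 2-fold or more and 1 (4.35%) was lower by as much, against 13.8% and 9.38% of all genes above the array median, so 4 of 23 was near the general share. Their median was 0.29, or 0.17 after loess centring. TRIM28, the KRAB-binding corepressor, whose gene itself lies at this chromosome end, was at 8.37 in PC3CR and 8.63 in PC3 (-0.26). SETDB1, the methyltransferase it recruits, was at 7.63 in PC3CR and 7.07 in PC3 (0.56). CBX5, the heterochromatin protein HP1 alpha, was at 8.27 in PC3CR and 6.75 in PC3 (1.52). SUV39H2, another histone H3 lysine 9 methyltransferase, was at 8.02 in PC3CR and 6.75 in PC3 (1.26). TASOR, of the HUSH silencing complex, was at 8.55 in PC3CR and 7.31 in PC3 (1.25), and MORC2, which works with HUSH, at 8.86 in PC3CR and 7.85 in PC3 (1.01). The 1 lower gene was ZNF274, at 7.57 in PC3CR and 8.76 in PC3 (-1.19), a KRAB zinc finger protein of the same interval that is known to bind the ends of zinc finger genes. With all probe sets of a gene averaged 1 of the 23 was higher by 2-fold or more and none lower by as much.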

How the data were processed

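Gene expression was measured on 1 array of PC3CR and 1 of PC3. The authors processed the arrays with RMA and deposited log2 values, 1 per probe set (54613). The submitters' processing notes name Affymetrix Expression Console 1.4 and Transcriptome Analysis Console 3.1. Quantile normalization within RMA makes the arrays alike in distribution and can hide a difference in total RNA. Probe set identifiers are of the U133 Plus 2.0 type, although the methods name another array. Probe sets with 1 symbol in the platform annotation (41091) were used. RefSeq tables (GRCh38.p14) gave gene order and promoters. No protein table was used, so finger counts were not made.

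The members were given by name, not by their values, but they and the lists were chosen with earlier results of these data known. Members past 2-fold, the next inside the threshold, the 5 within it of highest mean signal, members of stated role, and up to 4 genes per other list were named. Neighbours, members of the lower stretch and members with disagreeing probe sets were named after their values were seen. Alternatives were probe set choice, scaling, signal filters and fold thresholds. Values were taken as moved past 0.1 (log2), counts past 1.5 times. Functions were tested on simulated data. Scripts ran in Python 3.11.15 with pandas 2.3.3 and numpy 2.4.6, loess came from statsmodels 0.14.6 and plots from matplotlib 3.10.9.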

Additional observations from a re-analysis of the deposited data

How the results depend on the processing

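With 1 array per cell line, no replicate could be left out. No paired analysis was possible because each group has 1 sample. At 3-fold, 3 members were higher and 1 was lower, and at 1.5-fold 5 were lower, the same counts as among the members above the array median. With both arrays required to reach the median, 3 were higher and 2 lower. Under the other probe set choices, scalings and signal filters 4 or 5 were higher and 2 or 3 lower. The median of the members was -0.16 when the brighter array had to reach the lower quartile and -0.21 when both arrays, or their mean, had to reach the median (settings chosen after the data had been seen), so the median of all members depended on how dim genes were treated. Its sign also turned to 0.02 after loess centring. Over the members above the array median it was -0.38 without s_at and x_at probe sets and -0.32 after quantile normalization. Of the 7 members past 2-fold, 7 kept the call under each of the 3 scalings, 6 with the mean of probe sets (without ZNF471) and 6 without s_at and x_at probe sets (without ZNF83). No member past 2-fold changed sign in any alternative. Background was not measured, and values below the array median may carry little signal over it, which limits what could be seen in 19 members.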
